A study of Drosophila melanogaster with 18 samples.

Results

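Cuticle protein genes encode the structural proteins that, bound to chitin, make up the exoskeleton of the fly, the lining of its trachea and gut ends, and the lens of its eye. The genes described here were chosen by symbol, as those named Cpr, Lcp, Ccp84A, Acp65A, Acp1, Edg, Pcp or Twdl in both deposited tables of read counts. The choice gave 123 genes of 16747 entries, of which 70 were Cpr, 25 Twdl, 15 Lcp, 7 Ccp84A and 3 Edg genes, with 1 gene each for Acp65Aa, Acp1 and Pcp. RNA had been sequenced from whole Drosophila melanogaster, 5 days old, in 6 groups of sex and line with 3 libraries each, 18 libraries in all. F0 flies are labelled with 10 strains: Oregon-R-C, DGRP-100, BER_2 and Harwich, then Canton-S, Wild_1A and w1118, and the marker strains multiple wing hairs (mwh), flare3 (flr3) and Oregon R flare3 (ORR, flr3). INT and NINT flies were taken at generation F12 and are labelled only as genetically heterogenous. INT and NINT are not spelled out in the labels, while the title of the series speaks of intelligence and longevity. The labels do not say how many flies made up a library or whether replicates came from separate cultures, so p-values measure the spread between libraries, which may be technical.

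Most Cpr genes carry the Rebers and Riddiford (RR) motif, a chitin-binding sequence found across arthropods, and many sit in tandem clusters. The Tweedle (Twdl) proteins form a separate family, also chitin-binding, in which dominant mutations change the body shape of larvae and pupae. Lcp genes were named for larval cuticle, Pcp for pupal cuticle, Edg genes for their dependence on ecdysone, and Acp1 and Acp65Aa for adult cuticle. Cuticle protein genes are used in waves around each moult, and the epidermis continues to lay down layers of adult cuticle for some days after the fly emerges.

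In dm6 coordinates the 123 genes lay on 3L (47 genes), 3R (33), 2R (27), 2L (8) and X (8), and 92 of them fell into 17 clusters with gaps of at most 20 kb between neighbours. The largest cluster held 18 genes on 3L from 6130386 to 6161589, among them Cpr65Au, Acp65Aa, Cpr65Ax1, Cpr65Ax2 and 10 Lcp65A genes. A run of 12 Twdl genes, TwdlM to TwdlD, lay on 3R from 26619118 to 26641054. The Ccp84A genes and Edg84A formed an 8-gene cluster on 3R from 6684451 to 6704903. Near-identical neighbours such as Cpr65Ax1 and Cpr65Ax2, Cpr67Fa1 and Cpr67Fa2, and Lcp65Ag1, Lcp65Ag2 and Lcp65Ag3 may share reads, and no source used here says how such reads were counted. Lcp65Ab1 and Lcp65Ab2 had identical counts in all 18 libraries, so their separate values cannot be read.

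Libraries held 31.8 to 39.2 M counts (M, 1e6) in males, 50.2 to 58.3 M in F0 females, 31.6 to 35.4 M in INT females and 40.9 to 47.2 M in NINT females. Ribosomal RNA took 20.3% to 36.3% of counts in F0 females, 10.4% to 23.2% in INT females and 5.94% to 7.36% in NINT females. Levels are CPM, counts per 1e6 counts of a TMM-scaled library. In all, 4 libraries stood apart by Act88F, the actin of the indirect flight muscle. Act88F was at 5299, 4835 and 325 CPM in F0 females, at 22.4, 70.1 and 1975 CPM in INT females and at 4.63, 5.57 and 8.92 CPM in NINT females. In F0 males Act88F was at 1205, 8.39 and 9.99 CPM, and in the other 6 male libraries at 8.44 to 11.3 CPM. F0 female libraries 1 and 2, INT female library 3 and F0 male library 1 are therefore named wherever a value rests on them. Ovary and egg genes summed to 1515, 816 and 15.5 CPM in the F0 male libraries, 20.1 to 22.2 CPM in INT males and 126, 752 and 1107 CPM in NINT males, against 7675 to 25454 CPM in females, and the part of this in the male results was not tested. Whole flies hold many tissues, and fewer cells of a type and less RNA per cell cannot be told apart in these data.

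Counts of at least 10 in all 18 libraries were found for 28 of the 123 genes, 22 genes reached 10 counts in no library, and 1 gene, Cpr49Ad, had 0 counts in every library. The filter on low counts left 81 genes for testing in females, 65 in males and 86 in the fit over both sexes. Per kb of exon, averaged over the 6 group means, the most abundant was Acp1 (314 CPM per kb; 2L, 7740562 to 7741537). The next 7 per kb of exon were Cpr49Ae (104 CPM per kb), Cpr65Au (84.9), Acp65Aa (72.1), Cpr100A (58.0), Cpr49Ab (57.6), Cpr67Fb (57.3) and Cpr62Bc (41.4). The leading gene per kb differed between groups. It was Acp1 in F0 females (1452 CPM per kb), INT females (235) and F0 males (195), Cpr67B in NINT females (28.0) and Cpr67Fb in INT males (110) and NINT males (217). The leading genes of the other classes per kb were TwdlE (4.47 CPM per kb) for Twdl, Lcp65Ag1 (4.34) for Lcp, Pcp (8.52), and Edg91 (0.489) for Edg. In the Ccp84A class the gene with the highest mean CPM was Ccp84Ab.

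**Figure D1:**
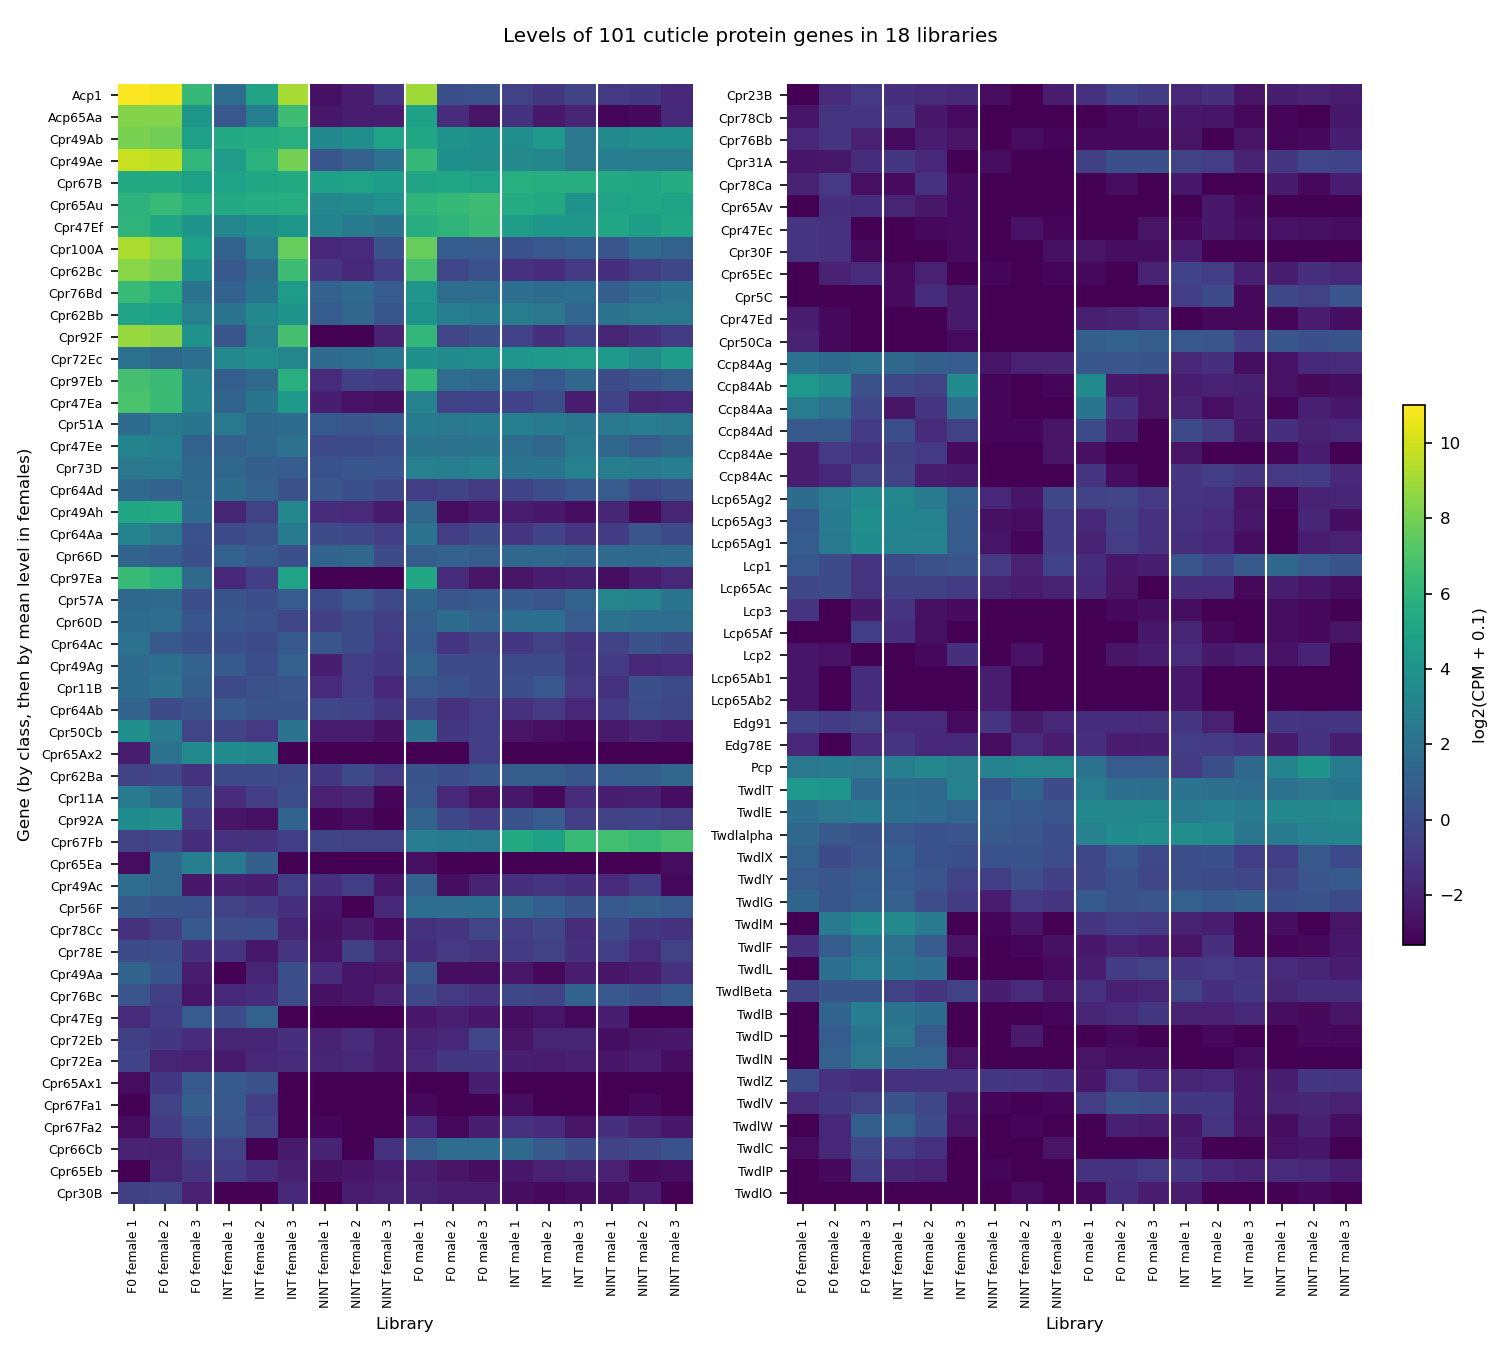
Levels of the 101 cuticle protein genes with at least 10 counts in any library, as log2(CPM + 0.1), with genes in rows (by class, then by mean level in females) and the 18 libraries in columns, groups parted by white lines. Acp1 and many Cpr genes are brightest in F0 female libraries 1 and 2, INT female library 3 and F0 male library 1, whereas TwdlM, TwdlL, TwdlB and their like are brightest in F0 female libraries 2 and 3 and INT female libraries 1 and 2.

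Acp1, the cuticle gene with the highest level in any library, was at 1923, 1738 and 76.9 CPM in the 3 F0 female libraries, at 3.47, 32.4 and 569 CPM in INT females and at 0.0553, 0.125 and 0.341 CPM in NINT females. In males it was at 501, 1.03 and 1.06 CPM in F0, at 0.399 to 0.674 CPM in INT and at 0.197 to 0.449 CPM in NINT. Every F0 and INT female library lay above every NINT female library, and F0 male library 1 lay far above the other 8 male libraries. Acp65Aa, the other gene named for adult cuticle, was high in the same libraries, at 322, 324 and 19.3 CPM in F0 females, 1.38, 7.18 and 93.3 CPM in INT females and 0.0922 to 0.126 CPM in NINT females. F0 male library 1 held 29.5 CPM of Acp65Aa, and the other male libraries at most 0.335 CPM.

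The same libraries were high for 4 RR-type genes, Cpr49Ae, Cpr100A, Cpr62Bc and Cpr92F. Cpr49Ae was at 879, 778 and 69.1 CPM in F0 females, at 23.3, 55.8 and 259 CPM in INT females and at 1.35, 2.004 and 3.97 CPM in NINT females. Cpr100A was at 605, 378 and 27.3 CPM in F0 females, at 2.30, 7.42 and 201 CPM in INT females and at 0.203, 0.230 and 1.15 CPM in NINT females. Cpr62Bc and Cpr92F followed with 345 and 448 CPM in F0 female library 1, 92.9 and 109 CPM in INT female library 3, and at most 0.520 CPM in any NINT female library. For these genes INT libraries 1 and 2 lay between the NINT and the F0 libraries, with no overlap between INT and NINT females.

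TwdlM, the first gene of the 12-gene Twdl run, followed another set of libraries, although F0 female library 2 was high for both Acp1 and TwdlM. It was at 0, 5.76 and 12.03 CPM in F0 females, at 10.5, 6.03 and 0 CPM in INT females and at 0.0184, 0.0835 and 0 CPM in NINT females. F0 female library 1 and INT female library 3, which were high for Acp1, had 0 counts of TwdlM. TwdlL was at 0, 3.64 and 6.51 CPM in F0 females and at 4.67, 3.44 and 0 CPM in INT females, and TwdlB at 0, 2.36 and 6.78 CPM and at 4.42, 3.21 and 0 CPM. Some RR-type genes had this order too. Cpr65Ax2 was at 0.120, 4.07 and 11.5 CPM in F0 females, at 12.1, 10.4 and 0 CPM in INT females and at 0 in all 3 NINT female libraries. Cpr65Ea was at 0.0400, 2.66 and 6.78 CPM in F0 females and at 6.02, 1.91 and 0 CPM in INT females, again with 0 in NINT. Acp65Aa and Cpr65Ax2 lie in the same cluster on 3L and were highest in different libraries, F0 female library 2 and INT female library 1. F0 female library 2 was high for both, at 324 CPM of Acp65Aa and 4.07 CPM of Cpr65Ax2.

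Over the 9 female libraries, Spearman's rho was at least 0.8 with Acp1 for 30 of the 81 tested genes, Acp1 itself included, and at least 0.8 with TwdlM for 11, TwdlM included. The first set held 23 Cpr genes, 4 Ccp84A genes and 1 Twdl gene, TwdlT, beside Acp1 and Acp65Aa. The second held 6 Twdl and 5 Cpr genes, and 40 genes reached the limit with neither. These libraries share group, depth and library composition, so the counts describe the pattern and carry no test. Counted another way, F0 female library 1 held the highest level of 35 genes (24 Cpr and 4 Twdl), F0 female library 3 that of 19 (3 Cpr and 9 Twdl), F0 female library 2 that of 13 (9 Cpr and 0 Twdl) and INT female library 1 that of 12 (6 Cpr and 4 Twdl). Only 1 gene had its highest level in a NINT female library. The share of all genes with their highest level in each library was not counted, so these counts do not set cuticle genes apart. TMM factors, by which library sizes were multiplied, were 0.429, 0.643 and 0.806 in F0 females and 1.15 to 1.18 in NINT females. A low factor raises every CPM of its library.

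**Figure D2:**
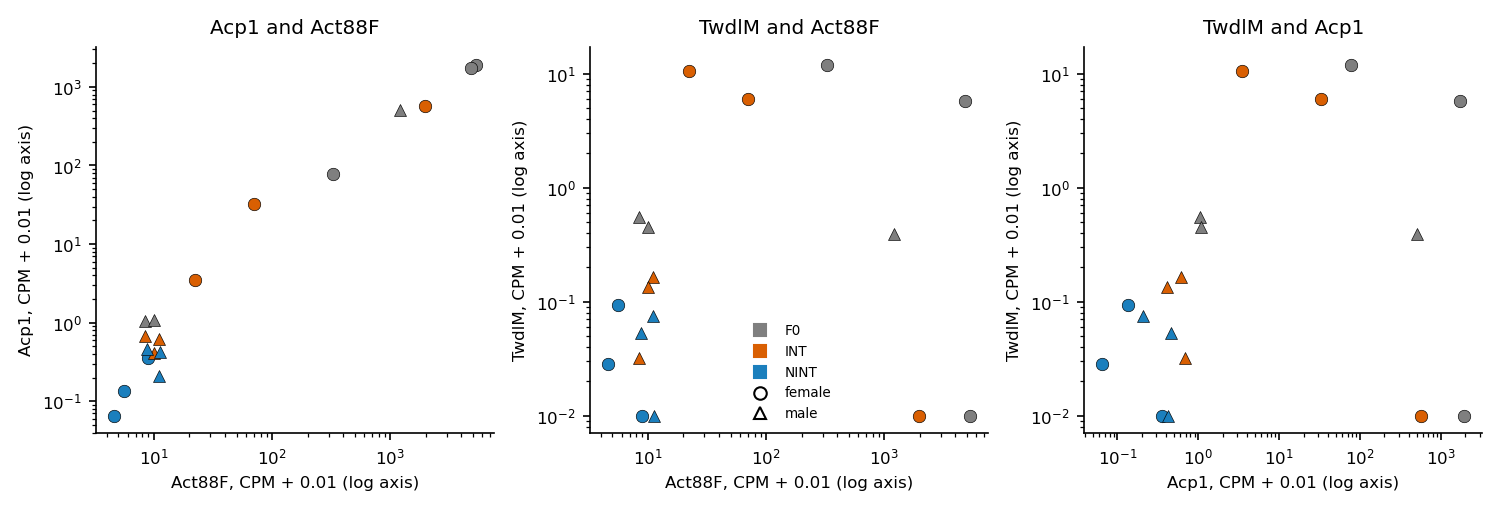
Levels of Acp1 against Act88F (left), TwdlM against Act88F (middle) and TwdlM against Acp1 (right), in CPM + 0.01 on log axes, 1 point per library, with colour for F0, INT or NINT and circles for females, triangles for males. The libraries with over 1000 CPM of Act88F are those with 501 to 1923 CPM of Acp1, and 2 of these, F0 female library 1 and INT female library 3, have 0 counts of TwdlM.

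The summed level of the 70 Cpr genes was 3279, 2635 and 348 CPM in F0 females, 230, 299 and 1024 CPM in INT females and 81.5, 91.0 and 101 CPM in NINT females. The summed level of the 25 Twdl genes was 34.5, 47.9 and 59.1 CPM in F0 females, 50.4, 31.9 and 14.9 CPM in INT females and 6.64, 8.60 and 5.58 CPM in NINT females. NINT females had the lowest 3 sums of both families among the 18 libraries, but within F0 and INT the library highest for Cpr was the lowest for Twdl. In males the Cpr sum was 874, 284 and 315 CPM in F0, 241 to 263 CPM in INT and 275 to 333 CPM in NINT, and the Twdl sum was 29.9 to 33.0, 18.5 to 30.1 and 24.1 to 29.2 CPM. The log2 ratio of the Cpr to the Twdl sum was 6.57, 5.78 and 2.56 in F0 females, 2.19, 3.23 and 6.10 in INT females and 3.62, 3.403 and 4.18 in NINT females. It ranged from 3.09 to 4.87 in males, and the 3 female groups overlapped in this ratio.

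**Figure D3:**
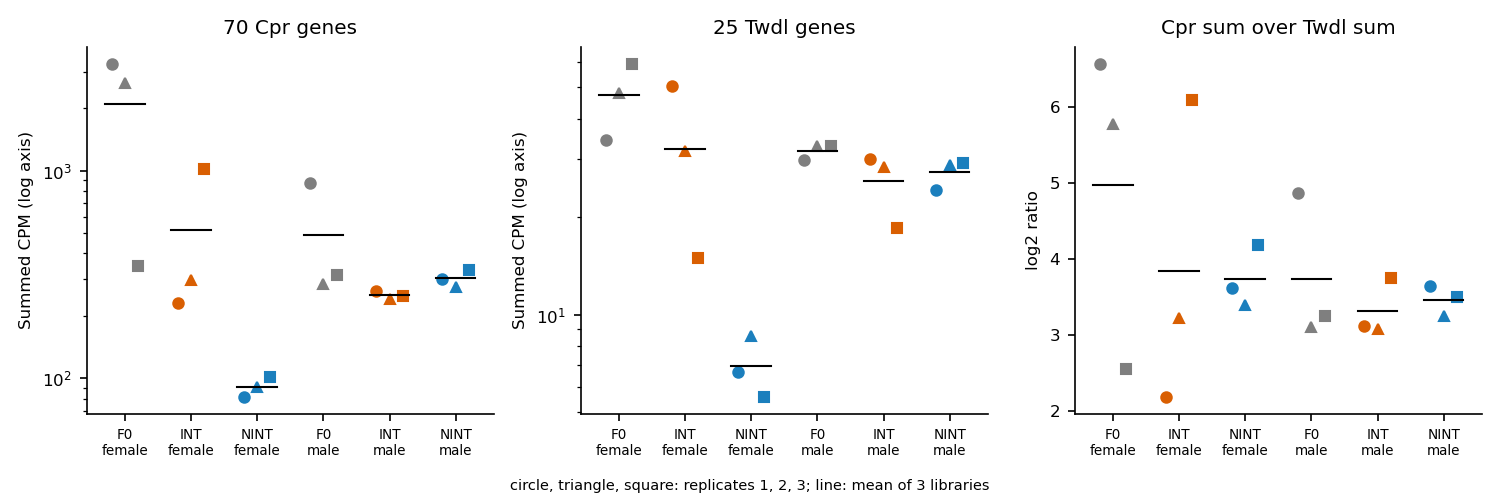
Summed CPM of the 70 Cpr genes (left, log axis) and of the 25 Twdl genes (middle, log axis), and the log2 ratio of the sums (right), in the 6 groups. Symbols are replicates 1 to 3 and lines the means of 3 libraries. The NINT females lie lowest in both sums, and the ratio spreads from 2.19 to 6.57 within F0 and INT females.

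NINT females were compared with F0 females to ask how the line at generation F12 differs from the F0 flies. Genes were tested with edgeR's quasi-likelihood test (two-sided) on the counts, and a called gene is one below 0.05 after Benjamini-Hochberg adjustment over all genes tested. Of the 81 cuticle genes tested, 48 were lower in NINT, where 14.9% of all 13169 genes tested were called lower, and 1 was higher, where 7.59% were. The median log2 fold change was -3.42 for the cuticle genes and -0.01 for all genes tested. The 8 genes at 0 counts in NINT females have bounds below this median, so setting them to their bounds cannot move it. These 8, and others with 1 to 3 counts in all of NINT, passed the low-count filter only through F0 and INT libraries. With so few counts they could hardly come out higher in NINT, so they lend no support to the counts and median given here. Both families took part: 28 of 50 Cpr genes and 10 of 17 Twdl genes were called lower, with medians of -3.08 and -3.64. So were 4 of 5 Lcp genes and 4 of 5 Ccp84A genes. The Lcp genes called were Lcp65Ac and the near-identical Lcp65Ag1, Lcp65Ag2 and Lcp65Ag3, which may share reads and so may not be separate results. Groups did not overlap, with NINT lower, for 51 of the 81, against 20.3% of all genes, and with NINT higher for 1, against 19.0%. Calls in either direction made up 22.5% of all genes.

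The smallest p among them belonged to Ccp84Ag, 1 of the tandem RR genes near the Antennapedia complex (3R, 6686728 to 6688039). It was at 4.32, 3.21 and 4.16 CPM in F0 females and at 0.0738, 0.146 and 0.162 CPM in NINT females. All F0 values lay above all NINT values, and the log2 difference was -4.92 ± 0.39 (standard error) at an adjusted p of 0.000748 by edgeR. Cpr65Au, abundant in both sexes, followed at 60.5, 82.1 and 52.8 CPM in F0 and 9.65, 11.1 and 15.02 CPM in NINT females (log2 -2.46 ± 0.22, adjusted p = 0.000933 by edgeR). TwdlE, the most abundant Tweedle gene per kb, was at 3.72, 5.11 and 5.67 CPM and at 1.72, 1.46 and 1.26 CPM (log2 -1.72 ± 0.26, adjusted p = 0.00631). For all 3 genes F0 library 3, low for Acp1, lay close to the other F0 libraries.

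The largest falls among called genes were those of the genes high in F0 female libraries 1 and 2. Acp1 had a log2 change of -12.77 ± 2.48 (adjusted p = 0.0132 by edgeR), from a mean of 1246 ± 1017 CPM (SD, n = 3 libraries) to 0.174 ± 0.149 CPM. Acp65Aa changed by -10.90 ± 2.08 (adjusted p = 0.0123), Cpr92F by -12.18 ± 2.44 (adjusted p = 0.0145) and Cpr49Ae by -7.89 ± 1.33 (adjusted p = 0.00826). Cpr97Ea had 0 counts in the 3 NINT libraries and 84.3, 56.2 and 2.97 CPM in F0, which makes it at least 2181-fold lower in NINT when 3 counts in all of NINT are taken as the floor. Cpr47Ea, at 122, 88.3 and 8.34 CPM in F0 and 0.0538 to 0.129 CPM in NINT (log2 -9.75 ± 1.44, adjusted p = 0.00533), overlaps the odorant receptor gene Or47a on the opposite strand, whose level was 27.2, 24.4 and 2.92 CPM in F0 and at most 0.184 CPM in NINT. Also called were Cpr11B (10.4-fold lower), Cpr49Ag (8.50-fold), Ccp84Ad (29.6-fold) and TwdlBeta (6.90-fold). Cpr62Bb, Cpr73D and Cpr47Ef were lower by 12.1, 3.59 and 6.22-fold. In none of these 7 genes did NINT overlap F0.

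Among the Twdl genes with 0 counts in F0 female library 1, TwdlM, TwdlL, TwdlB and TwdlN were called lower in NINT although the groups overlapped at 0. TwdlM, for example, had a log2 fold change of -7.41 ± 2.28 (adjusted p = 0.0469 by edgeR). Pcp was the 1 gene called higher, at 5.15, 6.12 and 4.95 CPM in F0 and 8.19, 9.46 and 9.05 CPM in NINT females (1.63-fold, log2 0.70 ± 0.20, adjusted p = 0.0362). Pcp lies within Gart, a gene of purine synthesis on the opposite strand that the tables list as ade3. Gart was at 90.6 to 140 CPM in F0 and 95.4 to 104 CPM in NINT females.

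Several of the other lists moved beside the cuticle genes in NINT against F0 females, and their part in the result was not tested. Of all genes tested there, 14.9% were called lower, 7.59% higher and 22.5% in either direction. All 10 genes of the muscle list were called lower. Their summed level was 7739 to 55587 CPM in F0 and 3143 to 4550 CPM in NINT females. The list holds Act88F and also general muscle genes such as Mhc. Act88F made up 4.63 to 8.92 CPM of the sums in NINT females, so these are not values of flight muscle alone. All 6 trachea and epidermal matrix genes were called lower, with sums of 348 to 3538 CPM and 120 to 241 CPM. Of the larval and prepupal genes 3 of 8 were called lower, with sums of 182, 178 and 2.30 CPM in F0 and 14.6 to 36.0 CPM in NINT females, and F0 male library 1 had the highest sum of all, 219 CPM. Ovary and egg genes had 4 of 10 called higher, with sums of 7675 to 13858 CPM and 22822 to 25454 CPM. The accessory gland genes, of which 0 of 9 were called by edgeR, summed to 145 CPM in NINT female library 1 and to 30.4 to 86.9 CPM in the other female libraries. Leaving ribosomal RNA out before scaling gave 49 cuticle genes called, as many as with it.

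This comparison depended on the number and choice of libraries. Leaving out the 3 females above 1000 CPM of Act88F, a choice made after seeing the data, left 1 F0 library. Only fold changes are given for that fit. The median over the cuticle genes was then -2.86. Acp1 had a log2 change of -8.74, Ccp84Ag of -5.00, TwdlE of -1.94 and Pcp of 0.84. Cpr11B, Cpr49Ag and TwdlBeta had log2 changes of -2.67, -2.64 and -3.01. Cpr62Bb, Cpr73D, Cpr47Ef and Ccp84Ad had log2 changes of -2.02, -1.10, -1.43 and -3.62 in the same fit. Acp1 and Cpr92F were not called without NINT female library 1, 2 or 3 (adjusted p from 0.0587 to 0.0749 by edgeR), and Cpr97Ea and Pcp were each called in 1 of the 6 fits that left out 1 library. TwdlBeta was not called without NINT female library 1, Cpr62Bb without library 1 or 3, and Cpr47Ef without library 2 or 3. Without F0 female library 2 there were 18 calls, and without NINT female library 1, 2 or 3 there were 10, 13 and 16. In those 4 fits the calls over all genes also dropped, to 631, 585, 656 and 583 from 2961.

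**Figure D4:**
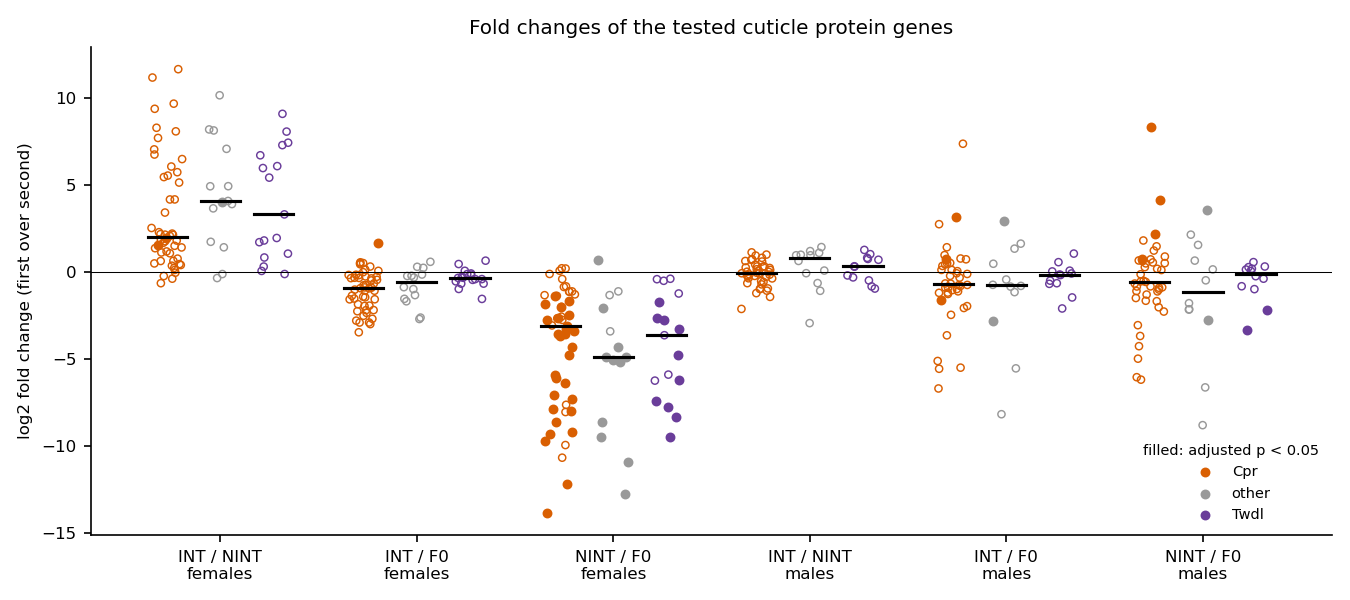
Log2 fold changes (first group over second) of the tested cuticle protein genes in the 6 comparisons within a sex, for Cpr, the other non-Twdl classes and Twdl genes. Filled points were called at adjusted p under 0.05 and bars are class medians. NINT against F0 females holds 49 of the filled points, and INT against NINT females holds 3, although its medians lie above 2.

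INT and NINT females are both of generation F12, and this comparison asks how the lines differ from each other. It uses the same NINT libraries as the comparison with F0, so the results are not independent. Cuticle genes called higher in INT numbered 3 of 81, where 0.995% of all genes tested were called in either direction and 0.888% were higher and 0.106% lower in INT. Ccp84Ag was at 2.76, 1.91 and 1.71 CPM in INT females, above all NINT libraries (log2 4.04 ± 0.38, adjusted p = 0.00746 by edgeR). Cpr72Ec, a protein of the corneal lens, was at 10.7, 12.8 and 9.48 CPM in INT and 3.12, 3.49 and 4.58 CPM in NINT females (log2 1.56 ± 0.23, adjusted p = 0.0257 by edgeR). Cpr65Au was the third, at 42.9, 47.4 and 49.3 CPM in INT (log2 1.97 ± 0.22, adjusted p = 0.0131). For all 3 the INT libraries lay close together, whereas those of Acp1 did not.

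INT did not overlap NINT, with INT higher, for 48 of the 81 cuticle genes, against 18.6% of all genes, and was lower without overlap for 1, against 19.1%. An unadjusted p under 0.05 was reached by 54 cuticle genes and by 1978 of all 13169. Genes at 0 or at 1 to 3 counts in all of NINT females passed the filter only through F0 and INT libraries. Such genes could hardly come out lower in INT, so they lend no support to these counts. By family, 2 of 50 Cpr, 1 of 5 Ccp84A and 0 of 17 Twdl genes were called, with medians of 2.02, 4.04 and 3.304. Acp1 had a log2 fold change of 10.15 ± 2.29 and an adjusted p of 0.0898, with INT libraries that spread from 3.47 to 569 CPM. Cpr97Ea, at 0.212, 0.500 and 30.5 CPM in INT, was at least 519.6-fold higher than in NINT, where it had 0 counts, and Cpr65Ax2 at least 402-fold, with 0 counts in INT library 3 as well. Neither was called. At the other end, Cpr66D (log2 -0.39 ± 0.48), Pcp (-0.13 ± 0.20) and Twdlalpha (0.05 ± 0.37) had the lowest values among genes at 1 CPM or more in a group, and none of the 3 was called.

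The count of calls in INT against NINT females changed with the method. DESeq2 called 39 cuticle genes, all higher in INT, and 870 of all 13169 genes. Without the 3 females above 1000 CPM of Act88F, edgeR called 34 of 87, all higher, with a median of 1.998, and 839 of all 13663 genes. Leaving out 1 library gave 1 call without INT library 2, NINT library 1 or NINT library 2, beside 5, 4 and 8 among all genes. It gave 2 calls without INT library 1 or NINT library 3, beside 15 and 19, and 5 without INT library 3, beside 153. Ccp84Ag was called in each of the 6 fits that left out 1 library, Cpr65Au in 3 and Cpr72Ec in 1 of them. The muscle list summed to 6546, 6808 and 21321 CPM in INT females and the trachea and epidermal matrix list to 316, 247 and 898 CPM. Both lists lay above every NINT female library, and their part in the result was not tested.

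**Figure D5:**
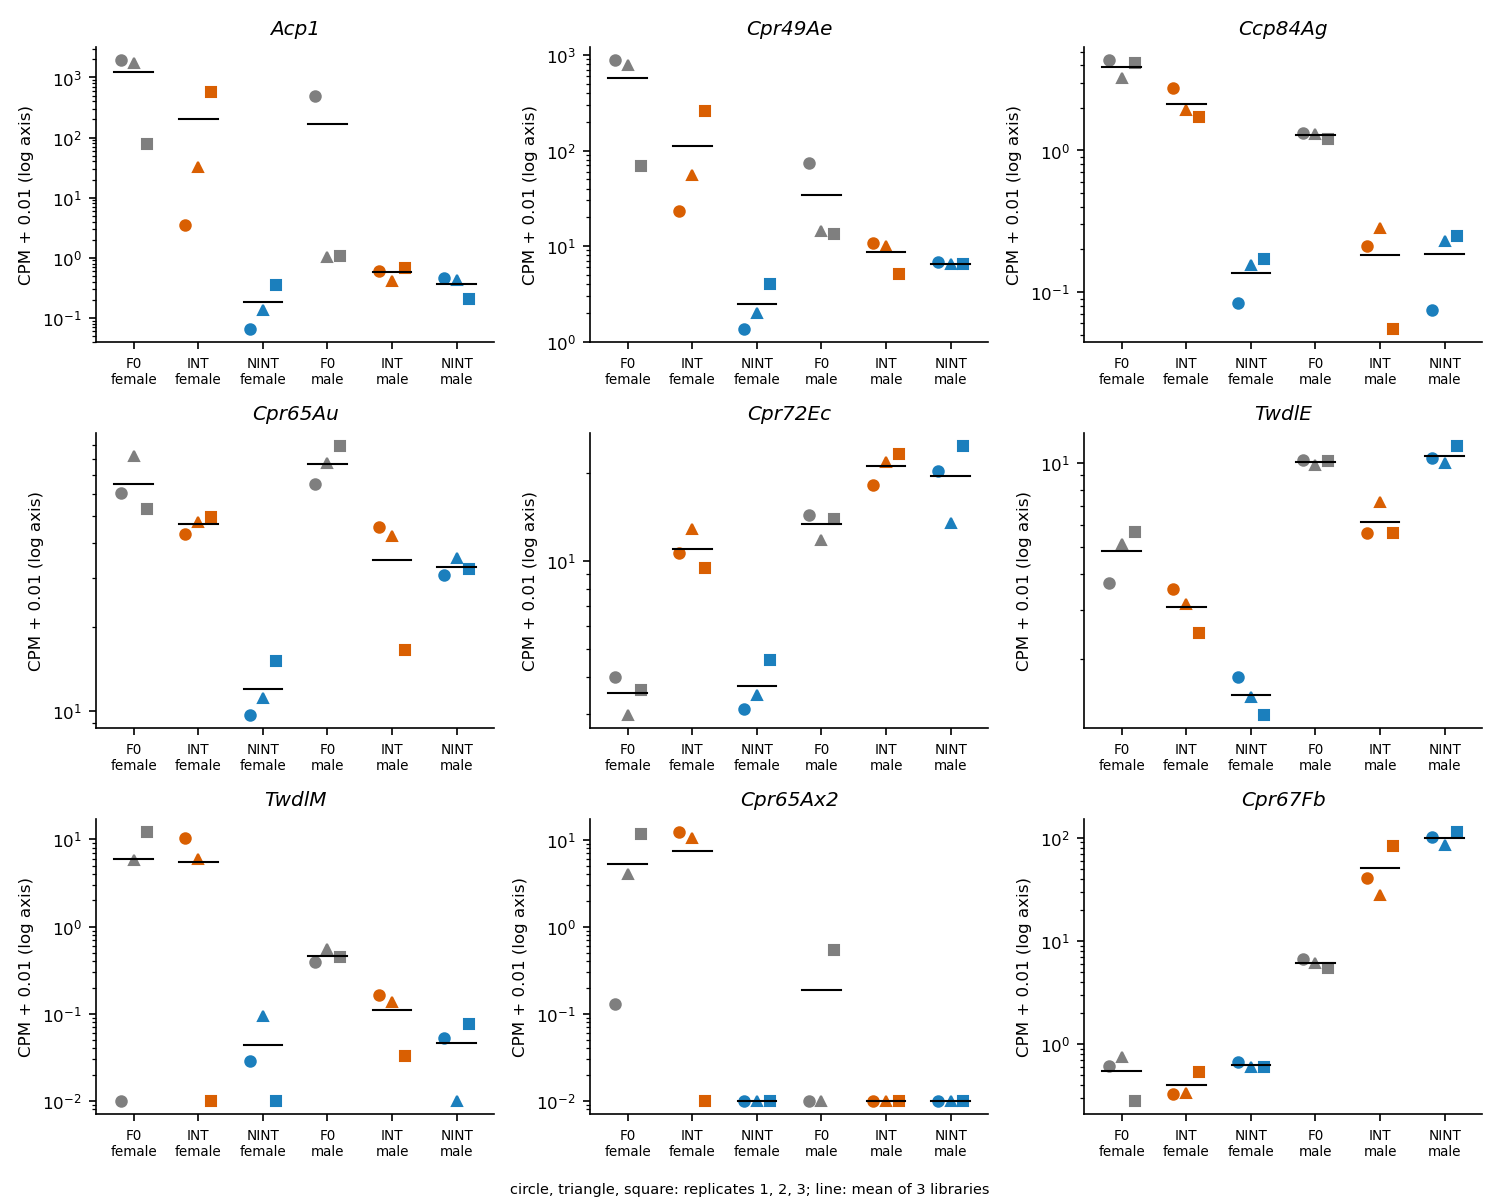
Levels of 9 cuticle protein genes in CPM + 0.01 (log axes) in the 6 groups, with symbols for replicates 1 to 3 and lines for the means of 3 libraries. Acp1 and Cpr49Ae spread widely within F0 and INT females, Cpr65Ax2 is at 0 in NINT females and in INT and NINT males, and Cpr67Fb is high in INT and NINT males.

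INT females differed from F0 females in 1 cuticle gene of 81 by edgeR, where 2.12% of all genes tested were called, 1.19% higher and 0.926% lower in INT. It was again Cpr72Ec, at 3.995, 2.97 and 3.61 CPM in F0 females and thus lower than in every INT library (log2 1.63 ± 0.23, adjusted p = 0.0139). The median log2 fold change of the cuticle genes was -0.67, against -0.01 over all genes. Groups did not overlap for 8 cuticle genes lower and 3 higher in INT, against 8.07% and 10.7% of all genes. Among genes at 1 CPM or more in a group, the lowest fold changes were those of Cpr92A (-3.47 ± 1.40), Cpr47Ea (-3.002 ± 0.98) and Cpr49Ac (-2.91 ± 1.15), none of them called, and all 3 overlapped between groups. Pcp (0.58 ± 0.20) and Cpr65Ax2 (0.49 ± 1.59) came next above 0 after Cpr72Ec. Without F0 female library 3 there were 18 calls of 82, 17 of them lower in INT, beside 4310 of all 13401 genes. There were 0 without F0 library 2, INT library 1 or INT library 2, beside 39, 58 and 30 among all genes. Leaving out the 3 females above 1000 CPM of Act88F left 1 F0 library, and Cpr72Ec then had a log2 fold change of 1.70.

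In males, INT against F0 gave 3 cuticle genes called higher and 2 lower of 65 tested, where 1.82% of all 15051 genes tested were called, 1.14% higher and 0.678% lower. Groups did not overlap for 9 higher and 16 lower, against 9.24% and 12.9% of all genes. Cpr67Fb was at 6.61, 6.04 and 5.49 CPM in F0 males and at 40.7, 27.8 and 82.4 CPM in INT males (8.95-fold, log2 3.16 ± 0.42, adjusted p = 0.0117 by edgeR). Lcp1, a protein of the larval cuticle, was at 0.264, 0.0940 and 0.133 CPM in F0 and at 1.32, 0.774 and 1.48 CPM in INT (log2 2.92 ± 0.52, adjusted p = 0.0324). Cpr67B was at 32.3, 33.7 and 29.9 CPM in F0 and 52.7, 48.3 and 49.3 CPM in INT (1.64-fold, adjusted p = 0.0332). None of these 3 overlapped. Of the lower genes, Cpr47Ef was at 49.4, 64.4 and 88.1 CPM in F0 and 24.6, 18.5 and 19.3 CPM in INT males (log2 -1.64 ± 0.24, adjusted p = 0.0172). Ccp84Ag was at 1.32, 1.29 and 1.20 CPM in F0 and 0.201, 0.274 and 0.0449 CPM in INT males (log2 -2.83 ± 0.54, adjusted p = 0.0411).

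NINT against F0 males gave 5 cuticle genes called higher and 3 lower of the 65, where 5.04% of all genes were called, 2.53% higher and 2.51% lower. Groups did not overlap for 12 higher and 22 lower, against 18.8% and 29.9% of all genes. Cpr67Fb again had the smallest p, at 101, 84.5 and 112 CPM in NINT males (17.7-fold, log2 4.15 ± 0.44, adjusted p = 0.00441 by edgeR). The antisense RNA CR45171 lies over Cpr67Fb on the opposite strand and followed the same libraries, at 4.41 to 4.60 CPM in F0, 17.6 to 51.2 CPM in INT and 52.8 to 73.2 CPM in NINT males. The kit is stranded, but no source used here gives the strand setting of the counting, so reads of the pair may have been counted for either. Lcp1 was at 2.61, 1.61 and 1.20 CPM in NINT males (log2 3.57 ± 0.52, adjusted p = 0.0118). The larval and prepupal list summed to 161, 86.6 and 78.7 CPM in NINT males and to 219, 9.47 and 8.33 CPM in F0 males, and the chitinases and deacetylases to 3015, 2100 and 2638 CPM and to 1522, 884 and 895 CPM. Their part in the result was not tested. Cpr57A was at 2.37, 1.34 and 1.53 CPM in F0 and 9.06, 8.38 and 4.40 CPM in NINT males (log2 2.17 ± 0.39, adjusted p = 0.0237). It overlaps the odorant-binding gene Obp57d on the same strand, which was at 4.56 to 9.13 CPM in F0 and 18.4 to 46.6 CPM in NINT males, so the values of both are uncertain.

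Cpr5C (X, 5804677 to 5805344) had 0 counts in every F0 library of both sexes and in every NINT female library. It was at 0.748, 0.573 and 1.33 CPM in NINT males and 0.535, 0.923 and 0.0225 CPM in INT males, at least 39.1-fold and 20.7-fold higher than F0 males taking 3 counts in the whole F0 group as the floor, with an adjusted p of 0.0483 and 0.112 by edgeR. INT females held 0.0354, 0.265 and 0.105 CPM. Cpr66D, a corneal lens protein, was at 1.80, 2.16 and 1.75 CPM in F0 and 2.84, 3.03 and 3.11 CPM in NINT males (1.70-fold, adjusted p = 0.0323). The 3 genes called lower in NINT males were Ccp84Ag (log2 -2.75 ± 0.54, adjusted p = 0.0302), TwdlM (-3.37 ± 0.70, adjusted p = 0.0364) and TwdlV (-2.17 ± 0.51, adjusted p = 0.0483). TwdlM was at 0.383, 0.540 and 0.443 CPM in F0 and at most 0.0656 CPM in NINT males, and none of the 3 overlapped.

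F0 male library 1 decided the median of the cuticle genes in both male comparisons with F0. The median log2 fold change was -0.65 for INT and -0.52 for NINT with it, and -0.13 and -0.07 without it. Acp1 (log2 -8.18 ± 2.40 in INT and -8.81 ± 2.49 in NINT), Cpr62Bc (-6.70 and -6.05) and Cpr100A (-5.57 and -4.99) were among the lowest values, as were Acp65Aa at -6.64 and Cpr92F at -6.20 in NINT, and none of them was called. Cpr76Bc (1.41 ± 0.58 in INT) was among the highest and was not called. Calls in INT against F0 males were 3, 0 and 1 without F0 library 1, 2 or 3, beside 133, 28 and 66 among all genes. Without INT library 1, 2 or 3 they were 2, 1 and 8, beside 131, 74 and 482. In NINT against F0 males they were 11, 1 and 1 without F0 library 1, 2 or 3, beside 924, 107 and 84. Without NINT library 1, 2 or 3 they were 2, 2 and 3, beside 116, 159 and 155. Cpr67Fb was called in NINT against F0 males in all 6 fits that left out 1 library. There Lcp1 was called in 4 of the 6 and Cpr57A in 2. Ccp84Ag, Cpr66D, TwdlM and TwdlV were called in 1 each, and Cpr5C in 0. In INT against F0 males, Cpr67Fb and Cpr47Ef were called in 4 of the 6 such fits, and Lcp1, Cpr67B and Ccp84Ag in 1 each.

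INT and NINT males gave 0 called cuticle genes of 65 by edgeR, where 0.0399% of all genes were called (0.0399% lower and 0.0% higher in INT). An unadjusted p under 0.05 was reached by 8 cuticle genes and 2473 of all 15051 genes, and DESeq2 called 3 and 934. The median log2 fold change was 0.01, as over all genes. Groups did not overlap for 5 cuticle genes higher and 9 lower in INT, against 10.5% and 9.07% of all genes. Cpr57A (log2 -2.13 ± 0.39, adjusted p = 0.127), Pcp (-2.94 ± 0.74, adjusted p = 0.161) and Cpr67Fb (-0.99 ± 0.39, adjusted p = 0.271) had the lowest values among genes at 1 CPM or more in a group, and INT lay below NINT in every library. Pcp was at 0.446, 0.973 and 2.61 CPM in INT and 8.81, 16.7 and 5.73 CPM in NINT males, and Gart on the other strand was at 28.5, 36.9 and 140 CPM and at 364, 483 and 157 CPM in the same order. Cpr66Cb (0.99 ± 0.45), Cpr92A (0.81 ± 0.59) and TwdlG (0.81 ± 0.25) had the highest among such genes. Without INT male library 3 edgeR called 5 cuticle genes, all lower in INT, and 3956 genes in all.

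Whether INT and NINT differed alike in the sexes was tested as the log2 difference in females minus that in males in a fit of all 18 libraries. Of 86 cuticle genes 2 were called, both with a positive value, where 0.268% of all 15304 genes tested were called in either direction, 0.216% with a positive and 0.0523% with a negative value. TwdlE had a value of 1.82 ± 0.28 (adjusted p = 0.0182 by edgeR). Its level in males was 5.60, 7.24 and 5.59 CPM in INT and 10.3, 9.91 and 11.4 CPM in NINT, and in females 3.54, 3.12 and 2.47 CPM in INT. INT was thus above NINT in every female library and below it in every male library. lectin-28C, which overlaps TwdlE on the opposite strand, was at 18.7 to 32.5 CPM in INT and 35.0 to 44.5 CPM in NINT males. Ccp84Ag had a value of 4.04 ± 0.74 (adjusted p = 0.0432 by edgeR), with 0.0449 to 0.274 CPM in INT males and 0.0641 to 0.241 CPM in NINT males, which overlapped.

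The median of this difference over the 86 cuticle genes was 2.59, against 0.04 over all genes, and 79 lay above 0. Acp1 had a value of 9.47 ± 3.19 and was not called (adjusted p = 0.236). Leaving out 1 library gave from 0 to 6 calls. There were 0 without INT male 1, INT female 1, INT female 2, NINT male 2, NINT male 3 or NINT female 2. In those fits 6, 15, 5, 6, 12 and 5 were called among all genes. There was 1 without INT male 2, INT female 3, NINT male 1 or NINT female 1, beside 12, 9, 7 and 12. There were 2 without NINT female 3, of 42 among all genes, and 6 without INT male 3, of 702. TwdlE was called in 4 and Ccp84Ag in 3 of these 12 fits. RLE scaling gave 1 call, of 22 among all genes, and DESeq2 gave 21, of 505. Leaving out the 4 libraries above 1000 CPM of Act88F gave 10, of 198, with a median of 1.95.

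Comparing the sexes within a line, F0 females had 30 cuticle genes higher and 10 lower than males of 86, where 61.7% of all genes tested were called, 28.9% higher and 32.8% lower in females. INT females had 33 higher and 13 lower, against 69.6% called, 30.5% higher and 39.0% lower. NINT females had 0 higher and 31 lower, against 73.5% called, 30.2% higher and 43.3% lower. The median of the cuticle genes was 1.40, 1.14 and -1.38 in the 3 lines, against -0.05, -0.20 and -0.40 over all genes. Without F0 male library 1 the F0 comparison had a median of 2.605 and 54 calls of 89, 45 higher and 9 lower in females. Over all genes 9194 of 15439 were called in that fit. With all libraries the count of cuticle genes higher in females was near the background share in F0 and INT, and was 0 in NINT.

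Genes called lower in females of all 3 lines included Cpr67Fb, Cpr72Ec, Cpr73D, TwdlE, Twdlalpha, Cpr50Ca, Cpr56F, Cpr62Ba and Cpr66Cb. Of these, Cpr56F overlaps CkIIbeta2 on the opposite strand, and reads of that pair may have been counted for either. Cpr67Fb was at 0.272 to 0.735 CPM across the 9 female libraries and at 5.49 to 112 CPM across the males, with log2 differences of -3.52 ± 0.40, -7.01 ± 0.45 and -7.33 ± 0.44 in F0, INT and NINT. Twdlalpha was at 1.01 to 2.68 CPM in females and 4.92 to 13.7 CPM in males (-2.64 ± 0.38, -2.96 ± 0.39 and -2.63 ± 0.38), and CG32568, which overlaps it on the same strand, was at 1.06 to 2.92 CPM in females and 7.73 to 14.7 CPM in males, so both values are uncertain. Cpr50Ca reached 0.539 to 2.04 CPM in males and no more than 0.160 CPM in females, and it overlaps S-Lap7, an aminopeptidase gene of sperm, at 266 to 947 CPM in males on the opposite strand. Male accessory gland genes summed to 3410 to 9268 CPM in males. Ccp84Ag was higher in females of F0 (log2 1.62 ± 0.43) and INT (3.61 ± 0.50) and was not called in NINT (-0.43 ± 0.55).

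Cpr72Ec and Cpr66D, 2 genes of the lens cuticle, can be set beside each other. Cpr72Ec was higher in males of every line, at 11.8 to 14.4 CPM in F0, 18.1 to 23.1 CPM in INT and 13.5 to 24.6 CPM in NINT. The 10 genes of the eye and cornea list summed to 3207 to 6318 CPM in males and 1382 to 2276 CPM in females. In F0, INT and NINT 5, 6 and 7 of them were called lower in females, where 32.8%, 39.0% and 43.3% of all genes were. Called higher in females were 1, 1 and 0 of them, against 28.9%, 30.5% and 30.2%. The gene called higher in F0 and INT was the lens protein gene retinin (log2 2.26 and 3.05). The part of the list in the sex difference of Cpr72Ec was not tested. Cpr66D in females was at 1.04 to 2.32, 1.01 to 2.05 and 0.915 to 2.78 CPM in F0, INT and NINT, which all overlapped. retinin, another lens protein and no member by symbol, was at 122, 140 and 60.9 CPM in F0 females, at 43.7, 59.5 and 93.0 CPM in INT and at 12.3, 8.96 and 11.4 CPM in NINT females. It was called lower in NINT than in F0 females (9.96-fold, adjusted p = 0.00189 by edgeR) and higher in INT than in NINT females (6.04-fold, adjusted p = 0.0251). Of the eye and cornea list 2 of 10 genes were called higher and 2 lower in NINT against F0 females, where 7.59% and 14.9% of all genes were. Among the higher was ninaE, the main rhodopsin (1.92-fold, adjusted p = 0.0226 by edgeR). The 2 called lower were retinin and Cry, the entry matched to Crys of the list (7.94-fold lower, adjusted p = 0.0371 by edgeR).

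Genes that make, modify or tan the cuticle are given for NINT against F0 females, where most calls fell. Of all genes tested there, 14.9% were called lower and 7.59% higher. Of the chitin synthesis and assembly genes 7 of 11 were called lower and 1 higher, and kkv, the chitin synthase of the epidermis, went from 115, 52.8 and 3.66 CPM in F0 to 0.277, 0.501 and 0.305 CPM in NINT females (159-fold lower, adjusted p = 0.0158 by edgeR). Chitinases and deacetylases had 7 lower and 4 higher of 21, with Cda4 lower by 184-fold and Cda9 higher by 86.5-fold. Chitin-binding peritrophin-like genes had 4 of 6 lower, among them obst-A (51.7-fold) and Gasp (33.9-fold). Apical matrix genes, most of which encode zona pellucida domain proteins, had 8 of 10 lower, with neo at 10.8-fold and dy at 21.3-fold. The tanning list had 10 of 15 lower and 1 higher. It was matched by symbol and held t and an entry named tan as separate genes, and what the entry tan encodes was not checked. Among those called were Ddc (2.79-fold lower), which makes dopamine, and t (3.02-fold lower), which frees dopamine from its beta-alanine conjugate. Pu (4.58-fold lower), which makes the cofactor for dopamine synthesis, was called too. In INT against NINT females 0.888% of all genes tested were called higher and 0.106% lower in INT. There 11, 21, 6, 10 and 15 genes of these 5 lists were tested, in the order given, and 3 were called. They were neo (14.1-fold higher) and t (3.07-fold higher) in INT and Cda9 (9.75-fold) lower.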

How the data were processed

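RNA-seq libraries from whole flies of 6 groups, 3 libraries each, were used. The authors deposited read counts per gene in a table for each sex, with no normalization. Total RNA was taken with Trizol and libraries made with a stranded SMARTer kit, per the labels' protocols. The build dm6 and DESeq2 are named in the submitters' processing notes, while aligner, counter and strand setting were not given in the sources used here. Counts were tested with edgeR 4.0.16 (R 4.3.3), with TMM scaling and a filter on low counts (minimum count 10, total 15). Quasi-likelihood tests used 9 female, 9 male or all 18 libraries, with Benjamini-Hochberg adjustment over all genes tested. The fits were tested on simulated data. Exon lengths came from Ensembl release 115. Alternatives were RLE scaling, no filter, ribosomal RNA left out, DESeq2 1.42.0, a replicate block, and each library left out. The members and lists were chosen with earlier results of these data known. Genes named were those called in a comparison (up to 12 by p), the 8 most abundant per kb, the leading gene of each class, the 3 highest and 3 lowest fold changes at 1 CPM or more, and 2 lens genes, while genes that show the library patterns were chosen after their values were seen.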

Additional observations from a re-analysis of the deposited data

Results flagged for a closer look

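In 2 cuticle protein genes the difference between INT and NINT differed between females and males by a test of that difference itself. For TwdlE the log2 difference in females minus that in males was 1.82, and for Ccp84Ag it was 4.04. TwdlE in every INT female library lay above, and in every INT male library below, the NINT libraries of that sex, although neither difference within a sex was called (adjusted p = 0.117 and 0.101 by edgeR), and Ccp84Ag was called higher in INT females with overlapping values in males.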

How the results depend on the processing

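The direction of the median over the cuticle genes held in every comparison except INT against NINT males, where it was close to 0 (-0.00498 with the replicate block, -0.0459 to 0.16 on leaving out 1 library). The counts of calls changed with the method. With DESeq2 39, 6, 3, 13, 22 and 21 genes were called in INT against NINT females, INT against F0 females, INT against NINT males, INT against F0 males, NINT against F0 males and the test between the sexes, beside 870, 983, 934, 1416, 3125 and 505 among all genes, and the medians were -3.58 in NINT against F0 females and -1.33 between the sexes in NINT. With a replicate block the counts were 0 in INT against NINT females, 0 in INT against F0 females and 23 in NINT against F0 females, beside 3, 80 and 850 among all genes. They were 2 in INT and 2 in NINT against F0 males, beside 63 and 149, and 0 in the test between the sexes, beside 7. The block gave medians of 2.33 in INT against NINT females and 2.81 in the test between the sexes. The deviations of same-numbered libraries from their group means had correlations of -0.58 to 0.27 in females and -0.44 to 0.52 in males. The numbers were not taken as pairs in the main fits. Whether same-numbered libraries shared a preparation was not tested. Without the 3 females above 1000 CPM of Act88F, chosen after seeing the data, the count was 34 for INT against NINT, beside 839 among all genes. The median was 1.998 for INT against NINT. With 1 F0 library left, the medians were -0.42 for INT against F0 and -2.86 for NINT against F0. Without the 4 libraries in all, the test between the sexes gave 10 calls with a median of 1.95, and the sexes in INT a median of 0.94. Without a filter the medians were -3.07 for NINT against F0 females, 0.57 and -1.17 between the sexes in INT and NINT, and 1.89 in the test between the sexes. RLE scaling gave that test 1 call and a median of 2.48, and leaving out ribosomal RNA a median of 2.47. The causes were not tested.

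Leaving out 1 library gave 1 to 5 calls in INT against NINT females (median 1.97 to 2.65), 0 to 18 in INT against F0 females (-0.935 to -0.52), 10 to 58 in NINT against F0 females (-3.63 to -3.08), 0 to 5 in INT against NINT males, 0 to 8 in INT against F0 males (-0.74 to -0.13), 1 to 11 in NINT against F0 males (-0.70 to -0.074) and 0 to 6 in the test between the sexes (1.95 to 2.70). Calls over all genes in these fits, in the same order, ran from 4 to 153, 30 to 4310, 583 to 6851, 0 to 3956, 28 to 482, 84 to 924 and 5 to 702. Between the sexes leaving out 1 library gave medians from 1.13 to 2.605 (F0), from 0.89 to 1.26 (INT) and from -1.79 to -1.17 (NINT). Fold changes that changed sign, none of them called, were Cpr49Ac (0.38) and Cpr65Ax2 (-0.037) in INT against F0 females without the 3 females. On leaving out 1 library, Cpr65Ax2 in INT against F0 females ranged from -0.062 to 1.81, Cpr66D and Cpr72Ec in NINT against F0 females from -0.104 to 0.56 and from -0.104 to 0.19, and Twdlalpha in INT against NINT females from -0.079 to 0.19.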

Other observations

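Tb, a Tweedle family gene with a symbol outside the naming rule, was at 0 to 0.919 CPM over the 18 libraries, and resilin, an elastic cuticle protein, at 0 to 1.16 CPM.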
